A study of Homo sapiens with 10 samples.

Results

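The 9 kinases described here, SRPK1, SRPK2, CLK1, CLK2, CLK3, CLK4, DYRK1A, DYRK1B and PRPF4B, phosphorylate serine/arginine-rich splicing factors (SR proteins) or other splicing proteins. They were chosen by name, as kinases with this role, and found among 31015 genes by matching the transcript of each deposited 3′ end interval to its gene. For each gene, reads with a T>C conversion (nascent RNA), all reads (total RNA) and the T>C share of the reads were compared across 5 conditions.

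SR proteins bind pre-mRNA and recruit the splicing machinery to exons, and phosphorylation of their RS domain decides where in the cell they reside and whether they can work. SRPK1 and SRPK2 phosphorylate them in the cytoplasm, which allows their import into the nucleus, whereas the CLK kinases act in the nucleus and release SR proteins from nuclear speckles. DYRK1A and DYRK1B are related nuclear kinases with splicing factors among their substrates, and PRPF4B acts on the spliceosome before its activation.

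The castration-resistant prostate cancer line 22RV1 was left untreated (control, with no vehicle named in the labels) or exposed for 4 h to an inhibitor of SRPK1 (SRPIN340, 20 μM), to 50 μM Endovion, a second compound that the study examined as an SRPK1 inhibitor, to THZ531, an inhibitor of the transcription kinase CDK12, or to THZ531 and Endovion together (the combination). THZ531 is given as 100 nM in the methods and as 150 nM in the description of the series. All cells received 4-thiouridine for the last 10 min, and a T>C read is taken to mark RNA made in that time. No library without the label was included, so the part of the T>C reads that arises without it was not measured. Each group had 2 libraries of mRNA 3′ ends. SRPIN340 with THZ531 was not analysed here. The labels do not state that replicates came from separate cultures, so p-values measure only the spread between these libraries, which may be technical.

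Each library had between 35517462 and 53592904 mapped reads, and between 19315398 and 30047663 of them lay on genes. T>C reads on genes numbered between 1011591 and 1576102 per library. Of 9 markers of prostate epithelium, 7 had at least 100 reads in every library, among them KRT8 and KRT18. KLK3 had between 49 and 227 reads and TMPRSS2 between 21 and 52. The summed level of these markers was 851 and 919.7 CPM (reads scaled by library size) in control cells. It was 932 and 1023 CPM with THZ531 and between 797 and 920.5 CPM in the other 6 libraries. The summed level of 7 markers of other cells was between 7.96 and 13.6 CPM in every library. Among these, VIM had between 117 and 205 reads and COL1A1 between 40 and 83, while COL1A2 was at 0 throughout. The part of these differences in the results for the kinases was not tested. In bulk RNA, fewer cells of a type and less RNA per cell cannot be told apart.

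The 9 genes had 12 separate intervals, and none of these overlapped an interval of another gene. The sequences below lie at or within 10 bases of the 3′ end of the intervals that the results turn on. They are shown because a library primed on the poly(A) tail reads the RNA just upstream of the site where it is cleaved, and the hexamer that marks such a site lies close to its end. Capitals mark the hexamer, AATAAA or ATTAAA, searched on the transcript strand in the last 50 bases of an interval. The sequences are from hg38, 5′ to 3′ on the strand of the gene.
SRPK2: tgtcttaaaaATTAAAgtgttttggttttt
CLK1: ttcctacttctATTAAAgaatggacataga
CLK3: tgaccttattAATAAAgtctttcttagcag
CLK4 (internal end): taaaattataATTAAAaaaaaaatctttgt
DYRK1A: tgttttatgtAATAAAtatgctaagctaaa
PRPF4B: atcactagatAATAAAgtcttttgtgaaca
They lie at chr7:105116385-105116414 (minus strand) for SRPK2, chr2:200853009-200853038 (minus) for CLK1, chr15:74630168-74630197 (plus) for CLK3, chr5:178621816-178621845 (minus) for CLK4, chr21:37526329-37526358 (plus) for DYRK1A and chr6:4061873-4061902 (plus) for PRPF4B. Of the 11 kinase intervals of at least 50 bases, 7 held a hexamer there, against 39.9% of 53840 such intervals of all genes. The ends of SRPK1 and DYRK1B and the last-exon end of CLK4 held neither. A match describes the letters in this window and is not evidence of cleavage.

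Total RNA of the kinases was higher in treated than in control cells for 0 of 8 tested genes with SRPIN340, 2 with Endovion, 4 with THZ531 and 5 with the combination, at an adjusted p under 0.05 (edgeR's quasi-likelihood test, Benjamini-Hochberg adjustment over 14689 genes), and 0 fell. Over all genes the share called was 1.96% with SRPIN340, 11.4% with Endovion (8.9% up), 30.7% with THZ531 (16.6% up) and 29% with the combination (16.6% up). With SRPIN340, 2 kinases had an unadjusted p under 0.05, against 19.3% of all genes, and DESeq2 called 1. CLK3, which rose with all treatments but SRPIN340, had the highest log2 fold changes among the kinases in those 3 comparisons. The call of CLK4 with the combination was for its separate 3′ ends summed, and its last-exon end alone was not called. The median log2 fold change over the 8 kinases was 0.19, 0.35, 0.45 and 0.50 in the same order of treatments, against 0.03, 0.02, -0.01 and 0.00 over all genes tested. Both treated libraries lay above both control libraries for 3 kinases with SRPIN340, 6 with Endovion, 7 with THZ531 and 6 with the combination, against 30.7%, 31.9%, 33% and 33.1% of all genes. With Endovion PRPF4B lay below control, as 25.6% of genes did. The 4 comparisons share the control libraries, so they are not independent of each other. CLK2 was left out of the total RNA test and CLK2 and DYRK1B out of the nascent test because of low counts.

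**Figure D1:**
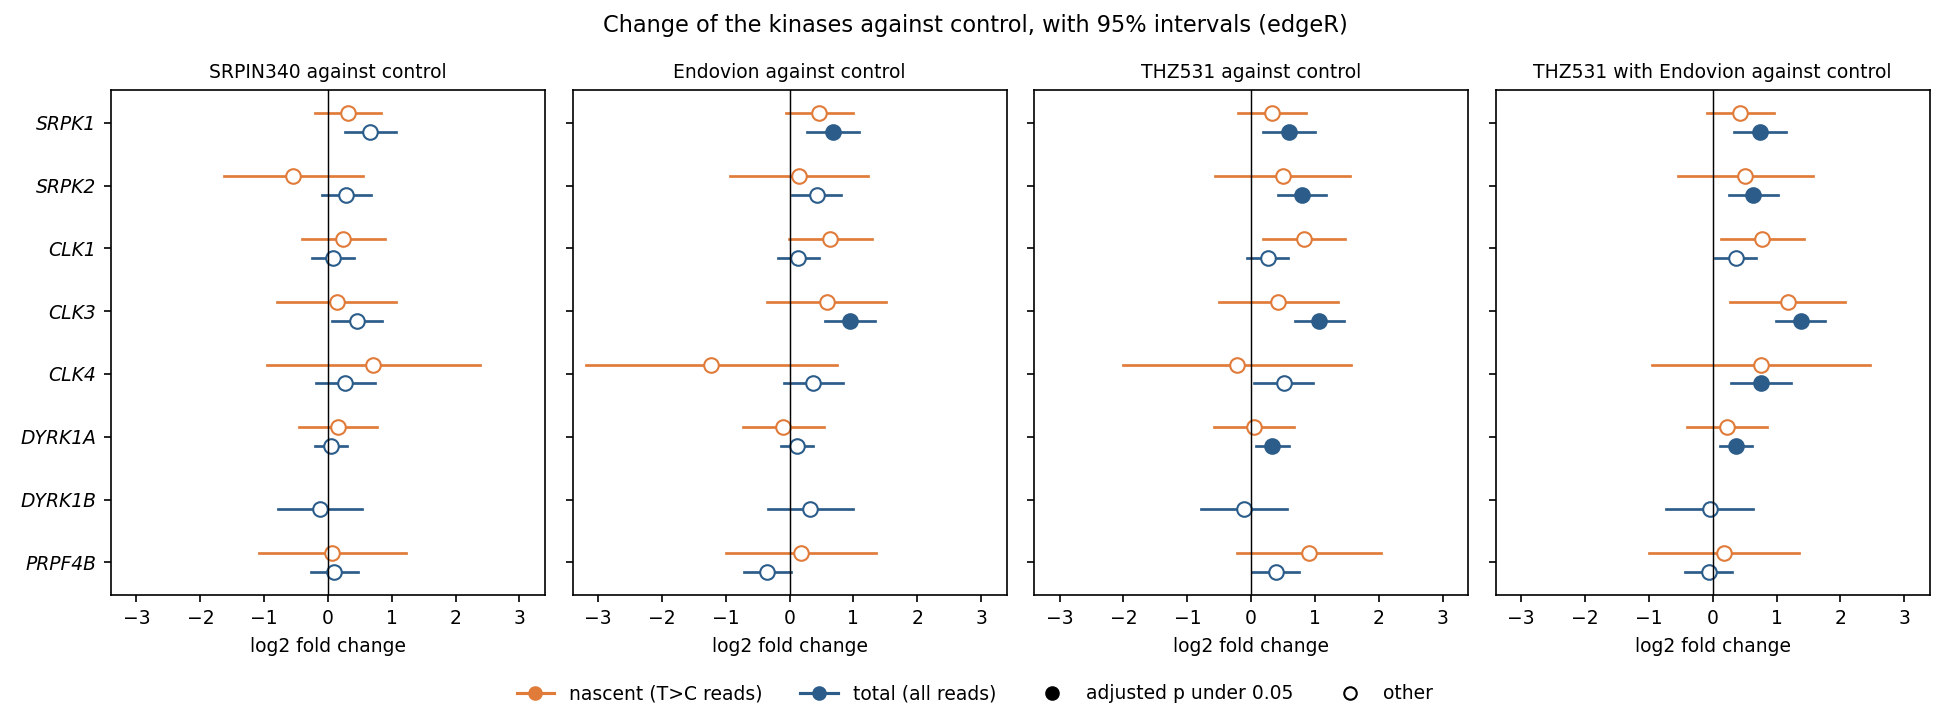
Log2 fold change of each kinase against control with its 95% interval, for nascent and total RNA and the 4 treatments. In total RNA CLK3 reached 0.95 with Endovion, 1.07 with THZ531 and 1.375 with the combination, and no kinase was called in nascent RNA.

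SRPK1 (ENSG00000096063, chr6:35832966-35921342, minus strand) is the principal cytoplasmic SR protein kinase, and the paper describes SRPIN340 as its inhibitor. Whether SRPIN340 acts on the other kinases was not tested here. Its reads lay on 1 interval of 2338 bases at chr6:35832966-35835303. Its total RNA was 50.0 and 30.2 CPM in control cells, 60.3 and 67.0 with SRPIN340, 65.3 and 63.2 with Endovion, 57.5 and 63.9 with THZ531 and 60.8 and 73.2 with the combination. All 8 treated libraries were above both control libraries, and the control libraries stood further apart from each other than those of any treatment. SRPK1 rose by a log2 fold change of 0.68 ± 0.19 (SE) with Endovion (adjusted p = 0.0347), 0.59 ± 0.19 with THZ531 (adjusted p = 0.0289) and 0.74 ± 0.19 with the combination (adjusted p = 0.0105). With SRPIN340 it was 0.66 ± 0.19 (adjusted p = 0.0824). The second control library decided these values: it held 719 SRPK1 reads against 1403 in the first, a log2 ratio of -0.73 after scaling, and 3.56% of the 6231 genes with a mean of at least 500 reads had a ratio as low. Without it the log2 fold changes were 0.32, 0.24 and 0.38 for Endovion, THZ531 and the combination, and the calls were lost (adjusted p = 0.337, 0.31 and 0.116). They were also lost without Endovion replicate 1 or 2 (0.66 and 0.70, adjusted p = 0.164 and 0.136) or combination replicate 1 (0.62, adjusted p = 0.0507) for Endovion, without THZ531 replicate 1 or 2 (0.63 and 0.46, adjusted p = 0.055 and 0.197) for THZ531, and without combination replicate 2 (0.60, adjusted p = 0.0898) for the combination. Without control replicate 1, which leaves the low library as the one control, the values were 1.08 with SRPIN340 (adjusted p = 0.000614, a call), 1.09 with Endovion, 1.01 with THZ531 and 1.15 with the combination. Without control replicate 2 that for SRPIN340 was 0.31 (adjusted p = 0.593).

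SRPK2 (ENSG00000135250, chr7:105110704-105399308, minus strand) is the second ubiquitous member of the family, with high levels in the nervous system. Its reads lay at chr7:105116376-105117837. Its total RNA was 10.8 and 10.5 CPM in control cells, 11.9 and 14.1 with SRPIN340, 13.2 and 15.4 with Endovion, 17.2 and 19.7 with THZ531 and 15.5 and 17.6 with the combination. Each treatment lay above control in both libraries, and both conditions with THZ531 lay above Endovion alone. SRPK2 rose by 0.79 ± 0.18 with THZ531, a 1.73-fold change (adjusted p = 0.00381), and by 0.63 ± 0.18 with the combination (adjusted p = 0.0152). The values were 0.29 with SRPIN340 (adjusted p = 0.396) and 0.42 with Endovion (adjusted p = 0.139). The THZ531 call was lost without THZ531 replicate 2 (0.64, adjusted p = 0.0574), and that of the combination without combination replicate 2 (0.54, adjusted p = 0.098) or control replicate 2 (0.57, adjusted p = 0.0943).

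CLK3 (ENSG00000179335, chr15:74598500-74645414, plus strand) is a nuclear dual-specificity kinase of the CLK family. Its reads lay at chr15:74629884-74630201. Its total RNA was 8.34 and 6.98 CPM in control cells, 10.5 in both libraries with SRPIN340, 13.8 and 15.9 with Endovion, 15.3 and 16.9 with THZ531 and 21.2 and 18.6 with the combination. The order from control through SRPIN340, Endovion and THZ531 to the combination held with no overlap between neighbours except Endovion and THZ531. CLK3 rose 1.93-fold with Endovion (log2 0.95 ± 0.18, adjusted p = 0.00583), 2.09-fold with THZ531 (1.07 ± 0.18, adjusted p = 0.000574) and 2.59-fold with the combination (1.375 ± 0.18, adjusted p = 0.000101). With SRPIN340 the log2 fold change was 0.45 ± 0.18 (adjusted p = 0.190). The calls for THZ531 and the combination held in 15 of 15 alternatives, with adjusted p from 8.74e-06 to 0.0102 and from 3.93e-09 to 0.00205. The Endovion call was lost without control replicate 2 (0.78, adjusted p = 0.0875) or Endovion replicate 2 (0.84, adjusted p = 0.0578).

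**Figure D2:**
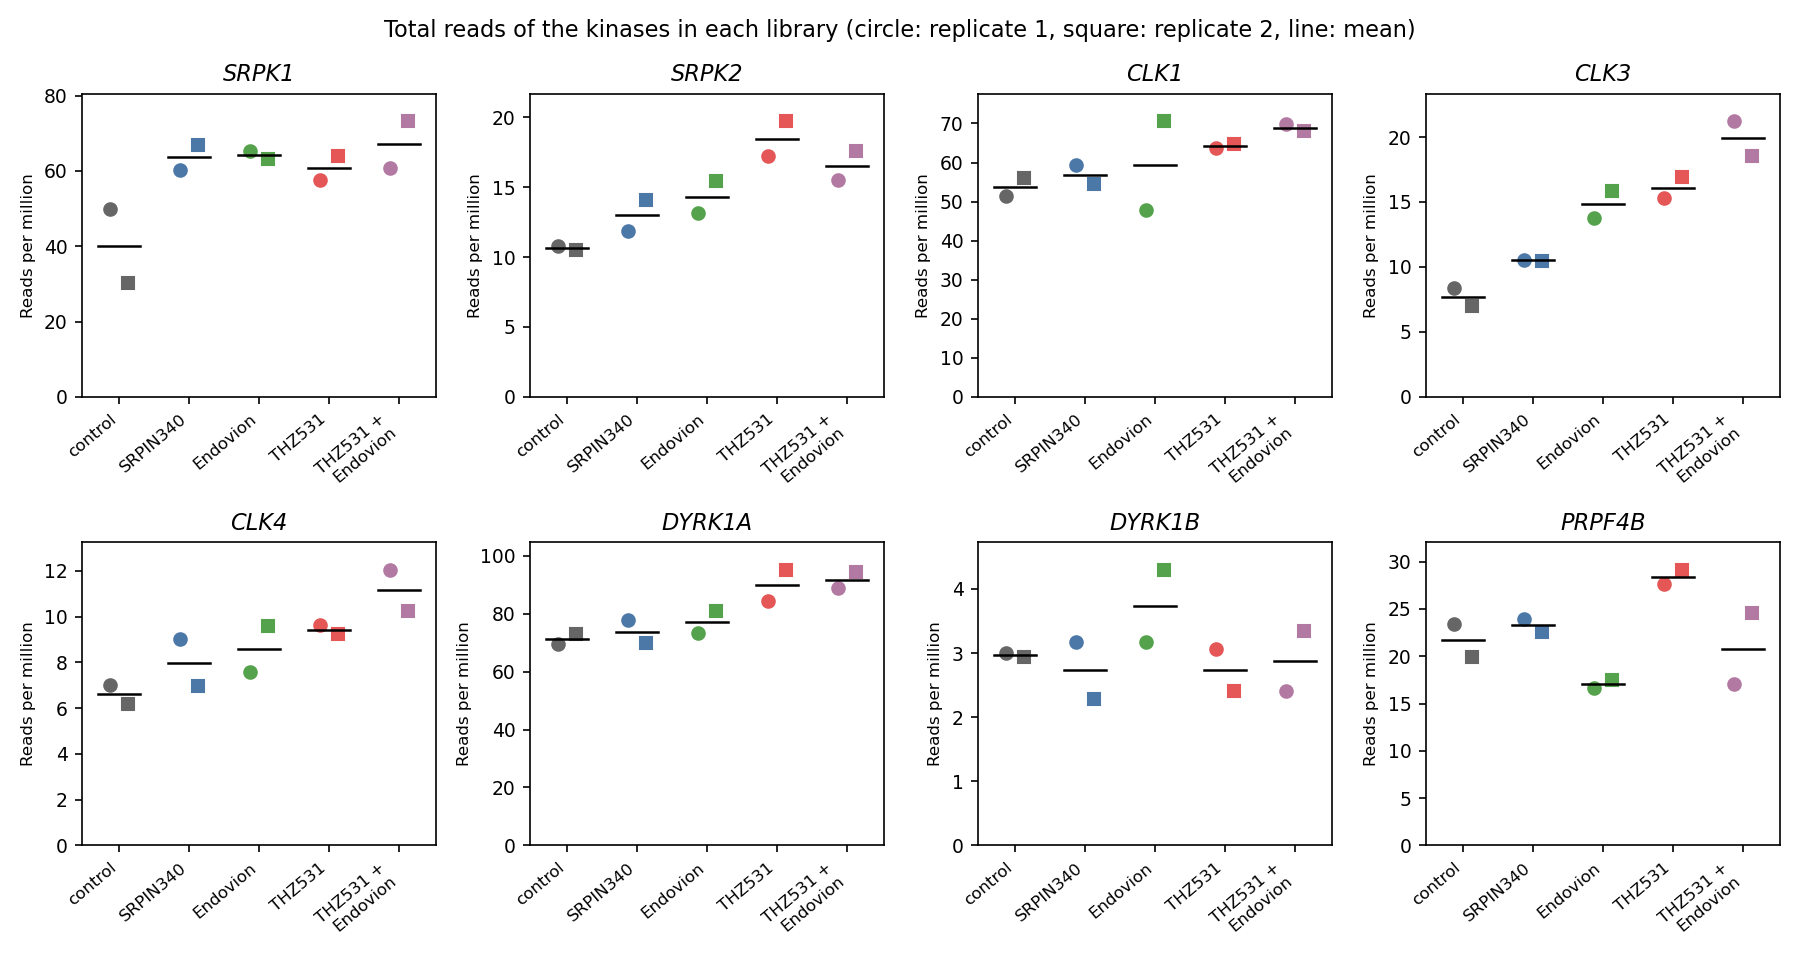
Total RNA of each kinase in CPM in each of the 10 libraries, in panels with their own linear scale. For CLK3 the combination libraries (21.2 and 18.6 CPM) lie above those of every other condition, and for SRPK1 the second control library (30.2 CPM) lies below all others.

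CLK1 (ENSG00000013441, chr2:200853009-200864691, minus strand) is a nuclear SR protein kinase known to retain introns in its own transcript when its activity is high. Its total RNA was 51.5 and 56.0 CPM in control cells, 59.4 and 54.4 with SRPIN340, 47.9 and 70.6 with Endovion, 63.7 and 64.9 with THZ531 and 69.8 and 68.0 with the combination. Both conditions with THZ531 lay above control in both libraries, and SRPIN340 and Endovion overlapped it. The log2 fold changes were 0.08, 0.14, 0.26 and 0.36 in the same order of treatments, with adjusted p of 0.823, 0.608, 0.223 and 0.0911, so no call was made. Without Endovion replicate 1 or 2 the combination value was 0.36 in both cases and passed (adjusted p = 0.0449 and 0.0463).

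CLK4 (ENSG00000113240, chr5:178602664-178630615, minus strand) is the close relative of CLK1. Its total RNA was 7.02 and 6.18 CPM in control cells, 9.01 and 6.96 with SRPIN340, 7.58 and 9.59 with Endovion, 9.62 and 9.22 with THZ531 and 12.1 and 10.3 with the combination. The combination libraries lay above those of every other condition, and THZ531 above control. Summed over its 2 separate 3′ ends, CLK4 rose by 0.76 ± 0.22 with the combination (adjusted p = 0.0169). The last-exon end, tested as a single interval with edgeR, gave 0.50 with the combination (adjusted p = 0.140) and was not called. For the summed ends the values were 0.27, 0.37 and 0.51 with SRPIN340, Endovion and THZ531 (adjusted p = 0.534, 0.292 and 0.0877). The call for the combination was lost without combination replicate 1 (0.57, adjusted p = 0.154) or control replicate 2 (0.62, adjusted p = 0.13).

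CLK4 had 2 separate 3′ ends, which were counted apart. The internal end, at chr5:178621812-178623251, is the interval of a separate annotated transcript and lies inside the gene. The last-exon end lies downstream of it, at chr5:178602664-178603616. The internal end held 19 and 15 reads in control cells, 32 and 47 with SRPIN340, 43 and 25 with Endovion, 70 and 48 with THZ531 and 69 and 37 with the combination. The last-exon end held 178 and 132, 209 and 172, 155 and 169, 191 and 124 and 206 and 159 reads in the same order. Scaled by library size, the internal end was 0.677 and 0.631 CPM in control cells and between 1.197 and 3.03 CPM in the 8 treated libraries, all above control. The last-exon end was 6.35 and 5.55 CPM in control cells, 7.04 and 6.65 with THZ531 and 9.03 and 8.32 with the combination, both above control, and it overlapped control with SRPIN340 and Endovion.

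As a share of CLK4 reads the internal end was 9.64% and 10.2% in control cells and 26.8% and 27.9% with THZ531, with exact 95% binomial intervals of 5.91 to 14.7%, 5.82 to 16.3%, 21.5 to 32.6% and 21.3 to 35.2%. It was 13.3% and 21.5% with SRPIN340, 21.7% and 12.9% with Endovion and 25.1% and 18.9% with the combination. These intervals cover counting error only. When each interval was tested on its own, the internal end rose by 1.93 ± 0.42 on the log2 scale with THZ531 (adjusted p = 0.00245) and by 1.87 ± 0.42 with the combination (adjusted p = 0.00354), where 29.9% (15.4% up) and 27.8% (14.9% up) of 17458 intervals were called. The last-exon end gave 0.16 (adjusted p = 0.661) and 0.50 (adjusted p = 0.140). With SRPIN340 and Endovion the internal end gave 0.99 (adjusted p = 0.225) and 1.11 (adjusted p = 0.111), where 1.17% and 9.53% of intervals were called.

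Set against the rest of its gene, the internal end rose by 1.46 with THZ531 (edgeR's test of an interval relative to its gene, adjusted p = 0.0199), where 15% of 5000 intervals of 2146 genes were called. With the combination the relative value was 1.16 (adjusted p = 0.116), where 9.24% were called. Both tests of the internal end were added after its reads had been seen. For the internal end tested on its own, DESeq2 and leaving out each library in turn kept the calls for THZ531 (adjusted p from 0.00173 to 0.0194) and the combination (0.00268 to 0.0490) in all 11 of these alternatives, which were not run for the test relative to the gene. The last 50 bases of the internal end hold a run of 10 A, as long as in 1.11% of all intervals, and whether the oligo-dT primer bound there was not tested. Its T>C reads numbered between 0 and 8 per library.

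**Figure D3:**
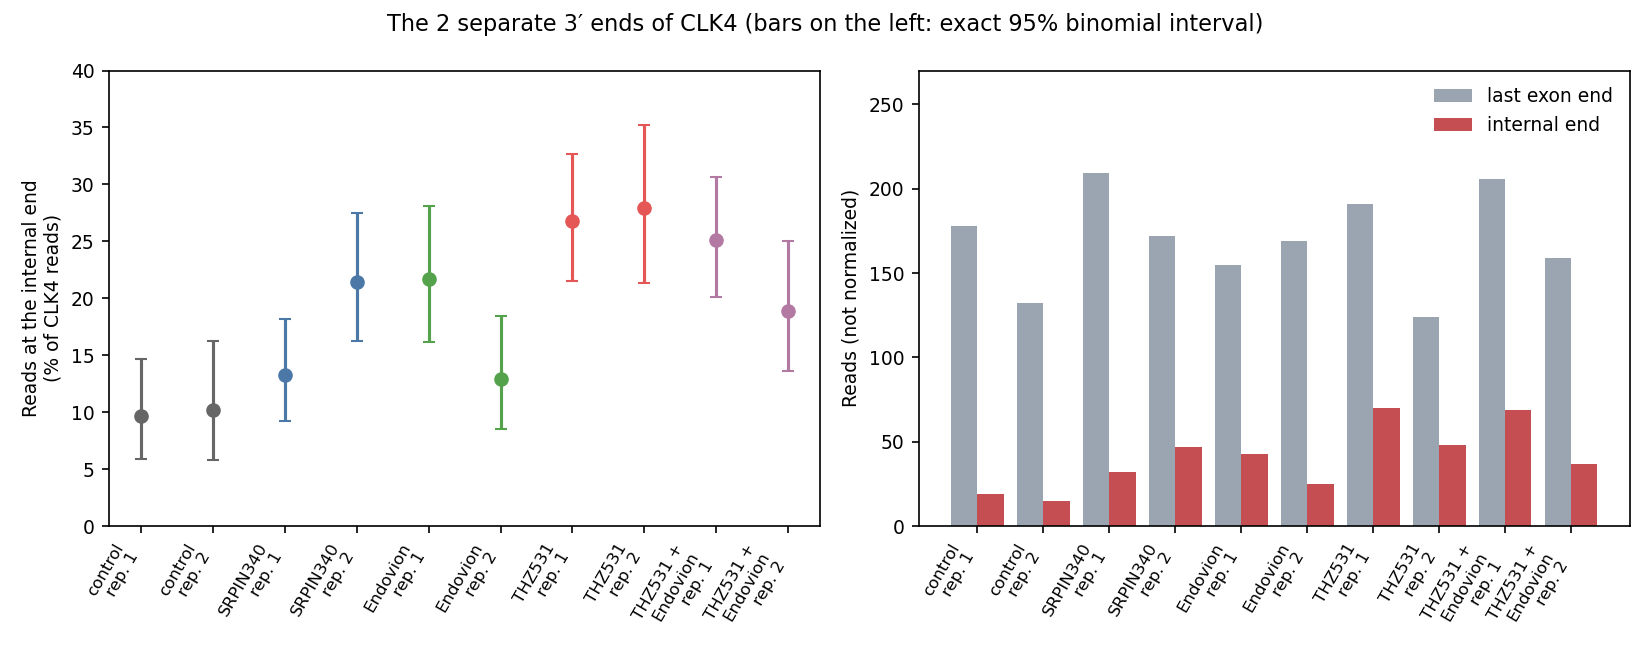
CLK4 reads on the internal end and the last-exon end, and the share of the internal end in percent with exact 95% binomial intervals, for each of the 10 libraries. The share is 9.64% and 10.2% in control cells and 26.8% and 27.9% with THZ531.

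CLK2 (ENSG00000176444, chr1:155262868-155278491, minus strand), a nuclear kinase also linked to metabolic control in liver, had between 0 and 4 reads per library and 16 in all, of which 6 were T>C reads. No comparison was made. Of 301 windows of 50 bases in its interval, 33 occur exactly in the pseudogene CLK2P1, so its reads may be shared.

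DYRK1A (ENSG00000157540, chr21:37365573-37526358, plus strand) is a dosage-sensitive kinase of brain development that also acts on splicing factors. Its total RNA was 69.4 and 73.1 CPM in control cells, 77.7 and 70.0 with SRPIN340, 73.5 and 81.1 with Endovion, 84.4 and 95.3 with THZ531 and 88.9 and 94.5 with the combination. All 4 libraries with THZ531 lay above the other 6. DYRK1A rose by 0.33 ± 0.12 with THZ531 (adjusted p = 0.0446) and 0.36 ± 0.12 with the combination (adjusted p = 0.0320). These calls held in 2 and 8 of 15 alternatives. That for THZ531 was lost without any one of the 10 libraries, with values from 0.19 (without THZ531 replicate 2, adjusted p = 0.424) to 0.37 (without THZ531 replicate 1, adjusted p = 0.0612), with DESeq2 (0.33, adjusted p = 0.053), with RLE size factors (0.33, adjusted p = 0.0503) and without the low-count filter (0.31, adjusted p = 0.0812). That for the combination was lost without either library of control (0.33 and 0.36), THZ531 (0.31 and 0.31) or the combination (0.35 and 0.32), with adjusted p of 0.0994, 0.107, 0.06, 0.0601, 0.129 and 0.148, and without the low-count filter (0.34, adjusted p = 0.057).

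DYRK1B (ENSG00000105204, chr19:39825350-39834201, minus strand), a related kinase linked to quiescence, held 45 to 87 reads per library and 8 T>C reads in all. Its total RNA lay between 2.29 and 4.30 CPM, and only Endovion (3.18 and 4.30) lay above both control libraries (2.99 and 2.94). The log2 fold changes ran from -0.12 to 0.33, and the lowest adjusted p was 0.541.

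PRPF4B (ENSG00000112739, chr6:4021267-4064983, plus strand), which acts with the tri-snRNP of the spliceosome, had 23.5 and 19.9 CPM in control cells, 24 and 22.6 with SRPIN340, 16.6 and 17.5 with Endovion, 27.7 and 29.2 with THZ531 and 17.1 and 24.5 with the combination. Endovion lay below control and THZ531 above it, and the other conditions overlapped control. The log2 fold changes were 0.10, -0.35, 0.39 and -0.06 in the same order of treatments, with adjusted p of 0.806, 0.214, 0.101 and 0.821, so none was called.

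In nascent RNA 0 of 7 tested kinases were called against control with any treatment, by edgeR or by DESeq2, where 1.04% of 9946 genes were called with SRPIN340, 2.66% with Endovion, 7.46% with THZ531 and 8.1% with the combination. At an unadjusted p under 0.05, edgeR gave 0, 0, 1 and 2 kinases, against 10.4%, 14.1%, 21.2% and 21.4% of genes. Those were CLK1 with both conditions that held THZ531 and CLK3 with the combination. Both treated libraries lay above control for 3, 3, 3 and 5 of the 7, against 20.9%, 22%, 24% and 24% of genes, and with Endovion CLK4 lay below, as 21.6% of genes did. The median log2 fold change of the 7 was 0.16, 0.18, 0.43 and 0.51, against -0.01, -0.01, -0.02 and -0.01 over all genes tested.

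Nascent SRPK1 was 57.3 and 66.6 CPM in control cells, 75.1 and 78.9 with SRPIN340, 86.7 and 83.7 with Endovion, 74.9 and 80.3 with THZ531 and 79.6 and 87.5 with the combination. All 8 treated libraries lay above both control libraries. The log2 fold changes were 0.32, 0.46, 0.32 and 0.43, each with an SE of 0.26, and the lowest adjusted p was 0.351. These values rest on 79 to 126 T>C reads per library.

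Nascent CLK1 was 44.4 and 32.1 CPM in control cells, 35.2 and 55.7 with SRPIN340, 46.0 and 75.0 with Endovion, 72.2 and 64.1 with THZ531 and 50.8 and 81.6 with the combination. The last 3 conditions lay above control in both libraries, with a wide spread within Endovion and the combination. The log2 fold changes were 0.24 (adjusted p = 0.847), 0.64 (0.370), 0.83 ± 0.32 (unadjusted p = 0.0128, adjusted p = 0.105) and 0.77 ± 0.33 (unadjusted p = 0.0207, adjusted p = 0.137) by edgeR's quasi-likelihood test. Nascent CLK3 was 15.4 and 20.1 CPM in control cells, 14.2 and 24.4 with SRPIN340, 14.6 and 39.4 with Endovion, 18.9 and 29.5 with THZ531 and 42.4 and 37.4 with the combination. Only the combination lay above control in both libraries, with a log2 fold change of 1.17 ± 0.45 (unadjusted p = 0.0121, adjusted p = 0.0998).

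CLK4 had 3 to 17 T>C reads per library, and its level was 5.15 and 7.22 CPM in control cells, 11.5 and 8.76 with SRPIN340, 2.3 and 2.89 with Endovion, 4.56 and 6.10 with THZ531 and 11 and 9.84 with the combination. Endovion lay below control and SRPIN340 and the combination above it, with log2 fold changes of -1.22, 0.71 and 0.76 and adjusted p of 0.627, 0.821 and 0.664. At the internal end of CLK4 such reads numbered 0 and 2 without treatment, 0 and 8 with SRPIN340 and 6 and 5 with the combination. The last-exon end held 8 and 7, 17 and 6, and 7 and 5 in the same order. With Endovion the internal end held 2 and 1 and the last-exon end 1 and 2. Nascent RNA of each end was not tested on its own. SRPK2 had 11 to 35 T>C reads per library and overlapped control with all treatments. DYRK1A lay above control in both libraries with SRPIN340 and the combination, with log2 fold changes of 0.16 and 0.23. PRPF4B, with 13 to 32 T>C reads per library, had 20.8 and 23.4 CPM with THZ531 and 12.9 and 10.4 CPM without treatment, which gave a log2 fold change of 0.91 ± 0.56 (adjusted p = 0.365).

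**Figure D4:**
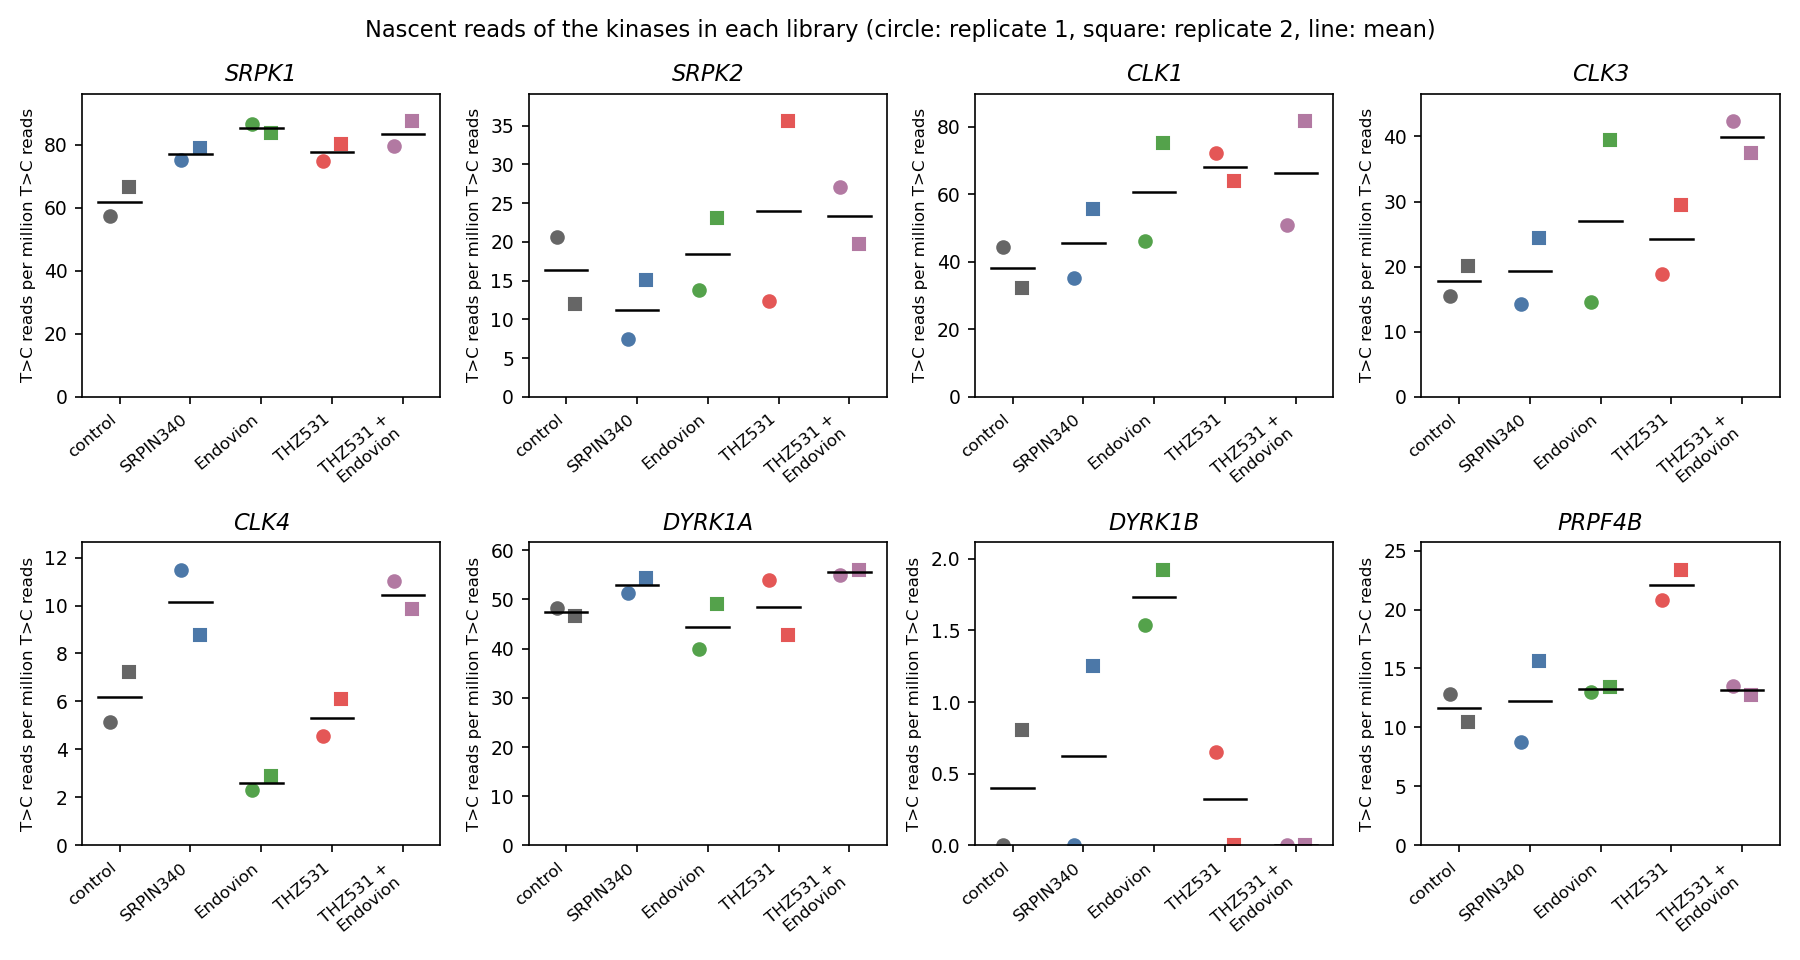
Nascent RNA of the kinases in CPM of T>C reads in each of the 10 libraries, in panels with their own linear scale. SRPK1 lies at 57.3 and 66.6 in control cells and between 74.9 and 87.5 in all treated libraries, while SRPK2, CLK1 and CLK3 spread widely within some groups.

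The T>C share relates both readouts of a gene, and genes with a fast turnover of mRNA tend to have a high one. Over the 10 libraries together it was 9.66% for CLK3, 6.86% for SRPK1, 6.58% for SRPK2, 4.83% for CLK1, 4.29% for CLK4, 3.43% for PRPF4B, 3.32% for DYRK1A and 1.1% for DYRK1B, against a median of 4.89% over the genes tested. CLK3 lay at the 87.1 percentile of these genes and DYRK1A at the 18.6 percentile. The intervals differ in length and in T content, with 71 T positions in 318 bases for CLK3 and 4122 in 13827 bases for DYRK1A, so shares are not compared by a test between genes.

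Shares were compared with control: edgeR's interaction of read class with treatment called 0 of 7 with each treatment, where 0.181% of genes were called with SRPIN340, 0.442% with Endovion, 0.342% with THZ531 and 1.02% with the combination. At an unadjusted p under 0.05, where 8.14%, 9.31%, 10.1% and 12.1% of genes passed in the same order, only CLK1 with THZ531 did, with a log2 change of 0.70 ± 0.32 (unadjusted p = 0.0342, adjusted p = 0.440). DESeq2 was not run on shares. The CLK1 share was 4.77% and 3.0% in control cells and 6.42% and 5.21% with THZ531, which did not overlap. The SRPK1 share was 6.34% and 11.5% in control cells and between 5.98% and 7.37% in the treated libraries, and the higher control value is that of the second library with its low total count. The CLK4 share was 4.06% and 6.12% in control cells, 7.05% and 6.39% with SRPIN340 and 1.52% and 1.55% with Endovion. The Endovion libraries lay below control, with a log2 change of -1.59 ± 0.90 (adjusted p = 0.625) over 3 T>C reads each.

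**Figure D5:**
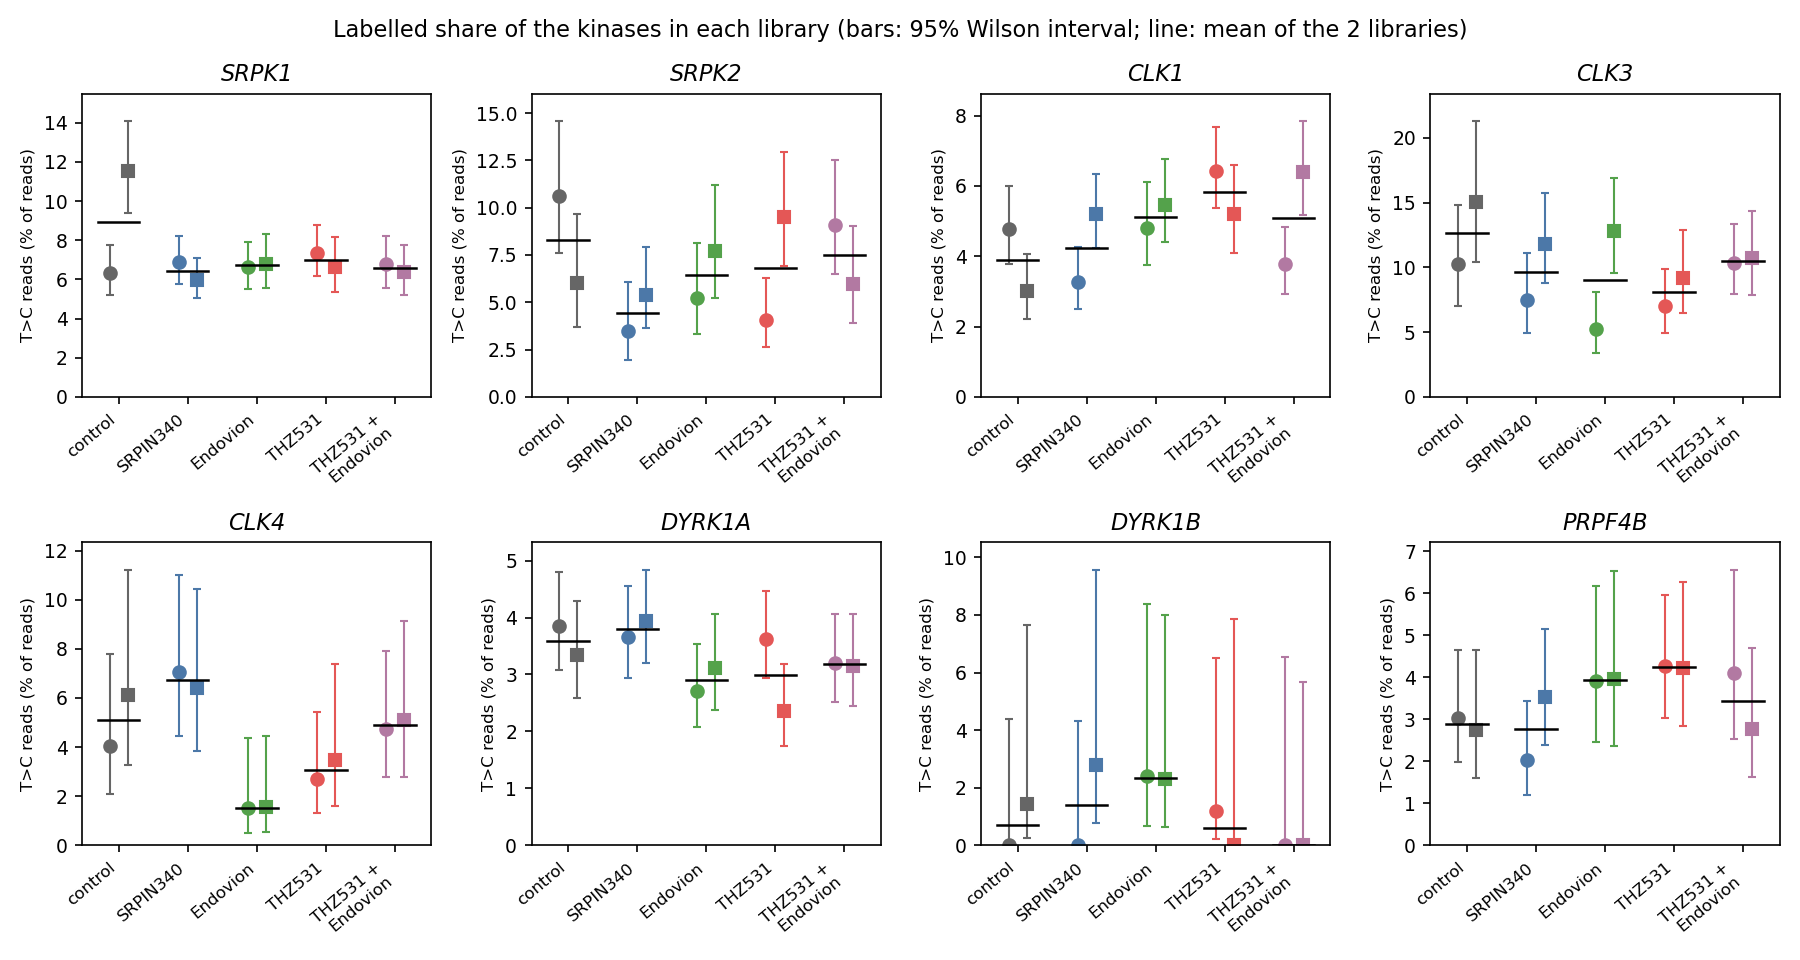
T>C share of the reads of each kinase in percent, in each of the 10 libraries, with 95% Wilson intervals. The second control library stands out for SRPK1 (11.5%), and Endovion lies lowest for CLK4 (1.52% and 1.55%).

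Endovion and SRPIN340, which were used at different doses, were compared directly to ask whether the 2 compounds act alike on these genes. In total RNA 0 of 8 kinases were called by edgeR or DESeq2, where 0.034% of genes were called, and 2 had an unadjusted p under 0.05, against 3.68% of genes. CLK3 was higher with Endovion by 0.49 on the log2 scale (95% interval 0.11 to 0.87, unadjusted p = 0.0139, adjusted p = 0.9999) and PRPF4B lower, at -0.45 (-0.82 to -0.08, unadjusted p = 0.0213, adjusted p = 0.9999). SRPK1 differed by 0.01 (-0.39 to 0.42), an interval that leaves room for a difference in either direction. In nascent RNA 0 of 7 were called, where 0.0603% of genes were, and CLK4 at -1.94 ± 0.94 alone had an unadjusted p under 0.05, as 3.9% of genes did (0.0447, adjusted p = 0.9997).

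Endovion added to THZ531 was compared with THZ531 alone, and 0 kinases were called in total RNA by edgeR or DESeq2, where 0.511% of genes were, or in nascent RNA, where 0.322% were. At an unadjusted p under 0.05, 1 passed in total RNA and 0 in nascent RNA, against 11% and 7.8% of genes. PRPF4B gave -0.45 ± 0.17 in total RNA (unadjusted p = 0.0200, adjusted p = 0.320), with 17.1 and 24.5 CPM against 27.7 and 29.2. It was -0.22 without combination replicate 1 (adjusted p = 0.927) and -0.73 without combination replicate 2 (adjusted p = 0.105). CLK3 gave 0.31 (95% interval -0.07 to 0.68, adjusted p = 0.566).

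The interaction asks whether the combination departs from the sum of the log2 changes with THZ531 and with Endovion. It was called for 0 of 8 kinases in total RNA and 0 of 7 in nascent RNA by edgeR and by DESeq2, where 0.00681% and 0.302% of genes were called. In total RNA 0 of the 8 values lay above 0, against 49.0% of those over all genes. The 8 values rest on the same libraries, so they are not independent of each other. They were smaller than their SE for CLK1 (-0.04 ± 0.22), DYRK1A (-0.09 ± 0.17), PRPF4B (-0.10 ± 0.25), CLK4 (-0.13 ± 0.31) and DYRK1B (-0.27 ± 0.45). CLK3 gave -0.64 (95% interval -1.18 to -0.10, unadjusted p = 0.0226, adjusted p = 0.319) and SRPK2 -0.58 (-1.12 to -0.05, unadjusted p = 0.0345, adjusted p = 0.357). At an unadjusted p under 0.05, these 2 passed in total RNA and 0 in nascent RNA, against 13% and 7.7% of genes. SRPK1 gave -0.53 (unadjusted p = 0.0641, adjusted p = 0.414), which moved with the control library used: -0.95 without control replicate 1 (adjusted p = 0.0138), with the library low for SRPK1 as the one control, and -0.18 without control replicate 2 (adjusted p = 0.854).

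Other kinases of these families and of splicing, 15 in a list, gave 12 tested in total RNA. Of these 0 were called with SRPIN340, 2 rose with Endovion, 6 rose and 1 fell with THZ531, and 5 rose and 1 fell with the combination, where 1.96%, 11.4%, 30.7% and 29% of all genes were called. HIPK3 rose by 0.60, 0.92 and 0.90 in the last 3 (adjusted p = 0.0169, 0.000318 and 0.000445). DYRK2, a stress kinase of the DYRK family, rose by 0.80 and 0.77 with THZ531 and the combination, and its nascent RNA by 1.08 (adjusted p = 0.00612) and 1.099 (adjusted p = 0.00522). HIPK2 fell with THZ531, by 0.67 in total RNA (adjusted p = 0.000278) and by 1.11 in nascent RNA (adjusted p = 3.86e-05). Of the 10 tested in nascent RNA, HIPK2 fell and DYRK2 rose with THZ531, and DYRK2 and TTK rose with the combination, where 7.46% and 8.1% of all genes were called.

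The substrates of the kinases were listed as 14 SR protein genes. In total RNA 0 of the 14 were called with SRPIN340, 2 rose and 3 fell with Endovion, 6 rose and 0 fell with THZ531, and 6 rose and 2 fell with the combination, against 1.96%, 11.4%, 30.7% and 29% of all genes. SRSF4 rose by 1.16, 1.29 and 1.31 in the last 3 (adjusted p = 0.00955, 0.00169 and 0.00163), and SRSF7 fell by 0.55 with Endovion (adjusted p = 0.0113). Of 13 tested in nascent RNA, SRSF7 fell by 0.72 with Endovion (adjusted p = 0.00267) and by 0.83 with the combination, TRA2B rose by 0.58 with THZ531 and SRSF4 rose by 0.66 with the combination, where 2.66% of all genes were called with Endovion, 7.46% with THZ531 and 8.1% with the combination. SRSF7 was also the one gene of the list that differed between the combination and THZ531, at -0.82 in nascent RNA (adjusted p = 0.00274) and -0.59 in total RNA (adjusted p = 0.0438). The T>C share of SRSF1 fell with all 4 treatments, by 0.73, 0.93, 0.92 and 1.08 on the log2 scale (adjusted p = 0.0388, 0.00234, 0.00242 and 0.000258), the one gene of the list called for its share, where 0.181%, 0.442%, 0.342% and 1.02% of all genes were. As for SRPK1, the total RNA of SRSF1 was lower in the second control library (112 CPM) than in the first (181 CPM) and lay between 233 and 322 CPM in treated cells.

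Of 14 genes for the import, release and dephosphorylation of SR proteins, 13 were tested in total RNA: 0 were called with SRPIN340, 2 rose with Endovion, 3 rose and 1 fell with THZ531, and 5 rose with the combination. These counts stand beside 1.96%, 11.4%, 30.7% and 29% of all genes, and that with THZ531 is at this background. TNPO3, the importin of phosphorylated SR proteins, rose by 0.36 in each of the last 3 (adjusted p = 0.0319, 0.0127 and 0.0131). Its T>C share fell by 0.48 with SRPIN340, 0.47 with Endovion and 0.57 with the combination (adjusted p = 0.0496, 0.0367 and 0.00393), and was -0.39 with THZ531 (adjusted p = 0.119). DCAF7, a scaffold that binds DYRK1A, fell by 0.49 with THZ531 in total RNA (adjusted p = 0.00712) and by 0.46 in nascent RNA (adjusted p = 0.0377). In nascent RNA 1 of the 13 rose with Endovion, 1 rose and 1 fell with THZ531 and 1 rose with the combination, against 2.66%, 7.46% and 8.1% of all genes. The gene that rose was AKT1, a kinase of growth factor signaling, by 2.97, 3.01 and 2.33 (adjusted p = 0.00839, 0.00357 and 0.0364). Its T>C reads numbered 5 and 3 without treatment and 7 to 38 in those treated libraries. With SRPIN340 its nascent value was 2.28 (edgeR, adjusted p = 0.126), not a call. AKT1 total RNA spread within groups, at 2.96 and 0.88 CPM in control cells, 6.92 and 27.7 with SRPIN340 and 44.6 and 18.2 with Endovion. It was 10.7 and 56.6 CPM with THZ531 and 32.9 and 28.6 with the combination. PPP1CB, a catalytic subunit of protein phosphatase 1, rose by 0.49 with THZ531 (adjusted p = 0.00622).

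The nascent genes most like SRPK1 over the 5 conditions, by the root mean square difference of centred group means of log2 CPM among 4092 genes with a mean of at least 50 T>C reads, were MIA2 (0.0265), CDC123 (0.0397) and MRPL3 (0.0403). For CLK1 they were TMEM14B (0.0485), CALM2 (0.0487) and MTA2 (0.0543). With 5 points per gene this describes the profiles only.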

How the data were processed

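SLAM-seq libraries of 22RV1 cells, 5 groups of 2, were analysed. The authors sequenced 3′ end libraries and counted conversions with SLAM-DUNK. The submitters' processing notes name Bowtie2 2.3.4.1, SAMtools 1.6, DESeq2 1.38.2 and hg38. The authors deposited reads and T>C reads per 3′ UTR interval as counts without normalization. The conversion rate, a fraction of covered T positions, was deposited too and was not used. A score-like CPM column that the authors deposited served only to infer the mapped reads of each library. Whether the counts were reduced by molecular identifiers is not given in the sources used here.

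Of 104653 intervals, 92826 on main chromosomes matched a GENCODE v44 transcript. Where intervals of a gene overlapped, that with the highest read number stayed, which left 57382, summed to 31015 genes. Counts were tested over all genes with edgeR 4.0.16 in R 4.3.3 (TMM, filterByExpr, robust quasi-likelihood fit of 5 group means over 10 libraries, 5 residual degrees of freedom), with Benjamini-Hochberg adjustment. The share was tested as read class by treatment within libraries. Alternatives included DESeq2 1.42.0. The procedure was tested on simulated counts with a fixed spread and a fixed size of change, placed in the THZ531 libraries only. That change was larger than any called for a whole kinase gene, so the recovery of smaller changes was not tested. Between replicates, the chi-square per degree of freedom was 15.1 to 23.7, above counting error.

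The kinases and the gene lists were chosen with earlier results of these data known. All kinases are named, and of each list at most the 3 called genes of smallest p per comparison. Genes like SRPK1 and CLK1 were named by the 3 smallest differences. Further markers of the prostate list are not reported here.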

Additional observations from a re-analysis of the deposited data

How the results depend on the processing

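Alternatives numbered 16 for nascent RNA, 15 for total RNA and 13 for the share. None of the kinases called turned its direction in any of them, and in 38 comparisons a called kinase lost its call. Counts of kinases called in total RNA, when each library was left out in turn, ranged from 0 to 1 with SRPIN340, 0 to 2 with Endovion, 1 to 3 with THZ531 and 1 to 6 with the combination, and from 0 to 1 for the interaction; a group left with 1 library was assumed to vary like the others. With SRPIN340 the count was 1 with DESeq2 and 1 with no low-count filter (SRPK1 in both). With THZ531 it was 3 in place of 4 with DESeq2, RLE size factors or no low-count filter (DYRK1A lost). With Endovion it was 1 with the plain sum of intervals and 1 with the replicate block (CLK3 in both). The methods' threshold (log2 limit of 1, unadjusted p under 0.05) gave 0 with Endovion, 1 with THZ531 and 1 with the combination in total RNA, and in nascent RNA 1 with the combination and 1 for Endovion against SRPIN340. The labels do not say whether replicate numbers pair the samples. Differences between replicates correlated weakly between groups (r from -0.07 to 0.06 in nascent and from -0.15 to 0.20 in total RNA over 10 pairs of groups). Noise within groups can hide a pairing, so these values cannot decide it. Log2 fold changes that crossed 0 when a library was left out, none of them called, ranged for nascent RNA with SRPIN340 from -0.13 to 0.53 for CLK1, -0.31 to 0.47 for CLK3 and -0.41 to 0.42 for PRPF4B; with Endovion from -0.25 to 0.60 for SRPK2, -0.27 to 1.15 for CLK3 and -0.25 to 0.048 for DYRK1A; with THZ531 from -0.41 to 1.11 for SRPK2, -0.44 to 0.029 for CLK4 and -0.15 to 0.19 for DYRK1A, which was -0.057 with the plain sum. For total RNA they ranged with SRPIN340 from -0.021 to 0.13 for DYRK1A, -0.37 to 0.10 for DYRK1B and -0.051 to 0.22 for PRPF4B, with Endovion from -0.17 to 0.40 for CLK1, and with the combination from -0.30 to 0.11 for DYRK1B and -0.34 to 0.12 for PRPF4B. Under scaling by all reads the median nascent value of all genes was -0.11 with Endovion, against -0.01 otherwise, and this scaling changed the sign of none of the 7 kinases. The cause of these shifts was not tested. Depth limits the nascent values of CLK4, SRPK2 and PRPF4B most, with at most 35 T>C reads per library, and CLK2 and DYRK1B could not be tested in nascent RNA.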
